A study of Rattus norvegicus with 35 samples.

Results

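The microRNAs of the Dlk1-Dio3 imprinted domain were followed in rat spinal cord after a contusion. A probe was taken as a member when its rat name, without a star, carried 1 of 44 microRNA numbers of the domain, and 43 of the 1766 microRNA names on the array met this rule. The choice used no measured value. The samples were 1 cm fragments of thoracic cord from adult female Wistar rats, cut with the injury site at their centre. In the LS groups a laminectomy was followed by a contusion of 200 kdyne at T8, in the SH (sham) groups the laminectomy was made alone, and the CT animals had no surgery. LS and SH animals were taken at 1, 3 and 7 days post operation (dpo), which gave the groups LS1, LS3, LS7, SH1, SH3, SH7 and CT, each with 5 animals and 1 array per animal. Each array held 4 spots per probe, and the log2 values below are medians over them after variance stabilization (VSN) of the 35 arrays together.

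In mammals the Dlk1-Dio3 domain is imprinted: the protein-coding genes Dlk1, Rtl1 and Dio3 are expressed from the paternal chromosome, and long noncoding transcripts such as Meg3, Rian and Mirg from the maternal one. The microRNAs are cut from these maternal transcripts, in a centromeric group around the antisense strand of Rtl1 and a larger distal group within Mirg. They are abundant in embryo, placenta and brain, and in the adult mainly in neurons. In rat neurons the distal group is induced by activity through the transcription factor Mef2. In mouse, miR-127, miR-136, miR-433 and miR-434 lie antisense to Rtl1 and match its transcript perfectly.

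All 43 probes were placed by the RefSeq annotation of the rat genome (GRCr8), on 39 hairpins of the plus strand of chromosome 6. A gene listed without a hairpin entry took the span of its mature entries. The 12 centromeric hairpins lay at chr6:134298084-134354569, which is 56.5 kb, and the 27 distal ones at chr6:134543445-134579838, which is 36.4 kb, with 188.9 kb between them. The mature sequence was settled for 19 probes, and for the others none was assigned. The probe name gave the arm, except for miR-431, miR-341 and miR-495, where the hairpin had a single mature entry. The mature sequences below, with the seed (bases 2 to 8) in capitals, are those of members the results turn on and of the hairpins that had a probe for each arm.
miR-127 (rno-miR-127-3p): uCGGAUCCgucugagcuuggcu
miR-434 (rno-miR-434-3p): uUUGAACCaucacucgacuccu
miR-323 (rno-miR-323-3p): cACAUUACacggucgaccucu
miR-495: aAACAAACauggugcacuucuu
miR-300-3p: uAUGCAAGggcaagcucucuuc
miR-300-5p: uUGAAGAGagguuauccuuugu
miR-376b-3p: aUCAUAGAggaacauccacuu
miR-376b-5p: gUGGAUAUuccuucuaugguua
miR-369-3p: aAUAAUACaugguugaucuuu
miR-369-5p: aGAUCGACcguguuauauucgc
miR-409-3p (rno-miR-409a-3p): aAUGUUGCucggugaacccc
miR-409-5p (rno-miR-409a-5p): aGGUUACCcgagcaacuuugcau
No seed was shared among the 14 detected members whose sequence was settled, so they formed 14 seed groups of 1 member. They have in common their position in the genome and the transcripts they are cut from.

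Of the 43 members, 31 passed the detection rule (2 SD over the mean of the negative controls on at least 3 arrays of any group), and with them 816 of the 1766 names. All 31 varied enough to be tested (interquartile range over 0.5) and were among 719 tested microRNAs. The 12 members that did not pass were miR-431, miR-758, miR-540, miR-770 and miR-673, detected on no array, and miR-380, miR-134, miR-493, miR-412, miR-370, miR-299 and miR-543, detected on 1 to 8 of the 35 arrays. miR-134, which restrains the growth of dendritic spines in rat hippocampal neurons, was detected on 2 arrays, so no change of it could be measured. In the centromeric group 6 of 12 probes were detected, and in the distal group 25 of 31.

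The number of members seen on an array was lowest in LS7, with 5 to 25, against 22 to 32 in SH7. It was 19 to 23 in LS3 and 26 to 33 in SH3, 24 to 33 in both LS1 and SH1, and 21 to 36 in CT. The count of all detected microRNAs moved in the same way at 7 dpo, with 270 to 922 per LS7 array and 567 to 771 per SH7 array. Among names above background, the middle signal stood at 6.57 to 12.89 negative-control SDs on LS7 arrays, against 14.55 to 20.35 on SH7 arrays. The green scanner gain was 600 to 720 on LS7 arrays and 550 to 610 on SH7 arrays. The detection rule is set by the same SD. How far this difference between arrays entered the counts and the low LS7 values was not tested. Because the whole distribution was lower on LS7 arrays, each change is also given relative to the median change of all 816 detected microRNAs, which was −1.0 on the log2 scale in LS7 versus SH7, −0.24 in LS3 versus SH3 and 0.12 in LS1 versus SH1. In LS7 versus SH7 this median depended on the scaling, between −1.0 with VSN and 1.34 with scaling to the 75th percentile of the microRNAs detected on all arrays. For LS7 replicate 4 and SH7 replicate 1 the deposited normalized columns did not follow the scanner values of the same array (Spearman's rho of 0.912 and 0.938, against 1 for the other 33 arrays). Without both animals 26 members were called lower in LS7, an alternative chosen after seeing the data. The tissue was measured in bulk, so fewer cells of a type and less of a microRNA per cell cannot be told apart.

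The signals of the members in uninjured cord gave the level from which the injured cords departed. miR-434 had log2 values of 11.30, 10.43, 10.69, 10.90 and 10.59 in the 5 CT animals. miR-329, a member of the Mef2-induced distal group, had 10.08, 9.36, 9.96, 9.82 and 9.83. miR-494 had 10.10, 10.38, 8.72, 9.64 and 10.22, and its CT animals were spread more widely than those of the other 4 members given here. miR-376a, whose precursor is edited by adenosine deamination in mouse brain, had 9.64, 9.13, 9.82, 9.72 and 9.37. miR-300-5p had 8.68, 9.49, 8.68, 9.01 and 9.53. These 5 members had the strongest CT signals, which cannot be read as relative abundance.

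At 1 dpo the cluster had moved little. In LS1 versus SH1 the median member changed by −0.25 log2 relative to all detected microRNAs, and 24 of the 31 detected members lay below that median. By limma with Benjamini-Hochberg adjustment 0 members were called, as were 0 of the 719 tested (0%). At an unadjusted p under 0.05 there were 0 lower and 1 higher member, against 4 lower and 67 higher among all tested. The higher member was miR-300-5p, with 9.26, 9.80, 9.67, 9.43 and 10.10 in LS1 animals against 8.36, 8.73, 8.36, 9.60 and 8.78 in SH1 animals, a change of 0.88 (SE 0.29, limma adjusted p = 0.228). Every LS1 animal lay above 4 of the SH1 animals, and the highest SH1 animal lay among the LS1 animals. miR-539 had 5.10, 6.14, 5.12, 5.74 and 5.32 in LS1 animals and 6.34, 5.88, 6.34, 5.90 and 5.87 in SH1 animals, with overlapping groups (change −0.58, SE 0.27, limma adjusted p = 0.495). With array weights 1 member was called, and with spike-in scaling, which placed 713 of the 719 higher in LS1, all 31 were called higher.

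At 3 dpo the cluster was lower in the injured cord relative to the other microRNAs on the arrays. In LS3 versus SH3 the median member changed by −1.21, or −0.97 relative to all detected microRNAs (a fold of 0.511), and 29 of the 31 detected members lay below the median of all. The same median relative change ran between −0.97 and −0.53 over the other ways of scaling, with 28 or 29 members below in each. Scalings that shift a whole array by a constant cannot alter it, apart from low signals set to a minimum. Limma with Benjamini-Hochberg adjustment called 10 members lower (32.3%) and 0 higher, against 4.87% of the 719 tested called lower and 0.278% called higher. Of the 31 members, 19 were above background on at least 3 arrays in LS3 and 28 in SH3, so some passed detection only through other groups. With each array centred on its median, 9 were called lower against 3.89% of all tested. All 5 LS3 animals lay below all 5 SH3 animals for 18 members, against 12.0% of the 719 tested.

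The members with the largest called changes at 3 dpo were miR-495, miR-127, miR-411 and miR-434. miR-127 had 7.54, 5.54, 6.91, 7.16 and 7.73 in LS3 animals against 8.69, 8.22, 8.96, 8.39 and 8.95 in SH3 animals, a change of −1.67 (SE 0.40, limma adjusted p = 0.0401) and of −1.42 relative to all detected. miR-434, its neighbour on the Rtl1 antisense strand, had 9.84, 7.68, 9.63, 9.58 and 10.06 in LS3 animals against 11.07, 10.90, 11.13, 10.67 and 11.17 in SH3 animals (change −1.63, SE 0.41, limma adjusted p = 0.0426, relative −1.39). For both, all LS3 animals lay below all SH3 animals, and LS3 replicate 2 was far below the other LS3 animals. In the distal group, miR-411 had 6.88, 5.75, 6.75, 6.61 and 6.95 in LS3 animals against 8.35, 8.25, 8.29, 7.73 and 8.54 in SH3 animals (change −1.64, SE 0.32, limma adjusted p = 0.0266, relative −1.40). miR-495 had 5.83, 3.66, 5.28, 5.85 and 6.12 in LS3 animals, 3 of which were above background, against 7.26, 7.14, 7.18, 6.65 and 7.19 in SH3 animals (change −1.74, SE 0.42, limma adjusted p = 0.0426, relative −1.49). Neither had an overlap between the groups. The other members called lower were miR-379, miR-369-5p, miR-376a, miR-433, miR-485, which targets the synaptic vesicle protein SV2A in rodent neurons, and miR-539. They changed by −1.53 to −1.06, and miR-369-5p and miR-485 were above background on 1 LS3 array each and miR-433 and miR-539 on 2 each. miR-369-3p had the change farthest below the median, −1.53, and missed the threshold with a limma adjusted p of 0.0527.

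The count at 3 dpo rested on the animals included, and the counts below are not set beside a share of all tested. Without LS3 replicate 2, 17 members were called. Without LS3 replicate 1, 3 or 4, or SH3 replicate 1, 3 or 5, 0 were called, and without SH3 replicate 4 there were 2, while the median relative change stayed between −1.04 and −0.89. With spike-in scaling 0 members were called, and with scaling to the 75th percentile of microRNAs detected on all arrays 1 was. Only 1 scan day held both an LS3 and an SH3 array. On that day, with 1 array per group, the median member differed by −1.12 in LS3 relative to all detected, with 27 of 31 below. No count with scan day as a block is given, as that fit rests on this pair.

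**Figure D1:**
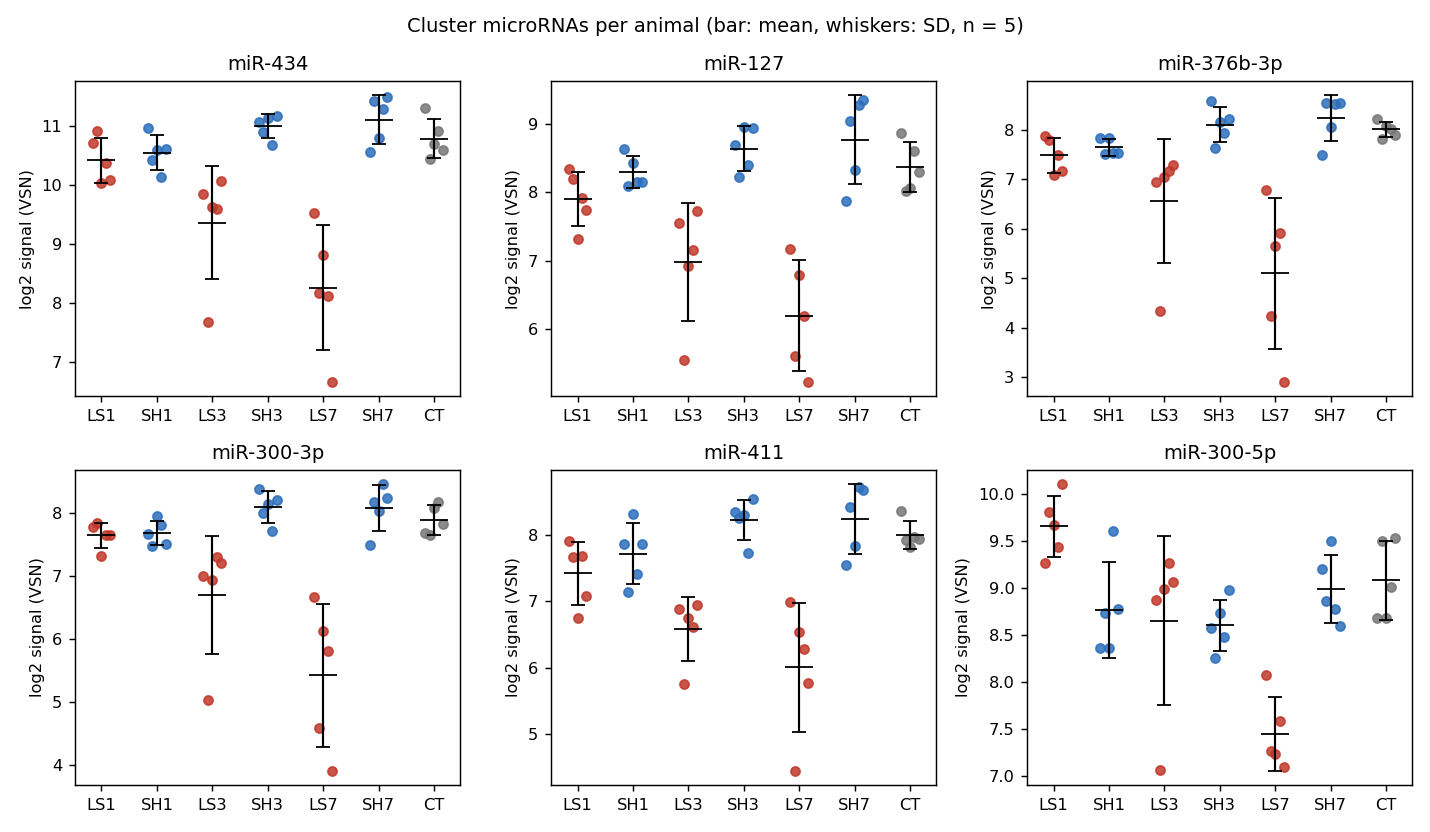
Log2 signal (VSN) of 6 cluster microRNAs in each of the 35 animals, by group, with the mean as a bar and the SD as whiskers (n = 5 per group). All LS7 animals lie below all SH7 animals in each panel, and all LS3 animals lie below all SH3 animals in each panel except that of miR-300-5p.

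At 7 dpo most of the cluster was lower in the injured cord relative to the other microRNAs on the arrays. In LS7 versus SH7 the median member changed by −2.14, or −1.14 relative to all detected microRNAs (a fold of 0.454), and 24 of the 31 detected members lay below the median of all. Over the other scalings the relative value ran between −1.14 and −0.64, with 24 to 29 members below. Limma with Benjamini-Hochberg adjustment called 27 members lower (87.1%) and 0 higher, against 58.4% of the 719 tested called lower and 5.01% called higher. Of the 31 members, 12 were above background on at least 3 arrays in LS7 and 25 in SH7. Members outside these 12 passed detection only through other groups. Their low LS7 values are therefore not independent of the detection rule, which was applied to all tested alike. With median centring 23 were called lower (74.2%) and 0 higher, against 31.0% lower and 16.7% higher among all tested. With scaling to the 75th percentile of the microRNAs detected on all arrays the direction turned. There 1 member was called lower and 11 higher, beside 11 lower and 439 higher of all tested. The median member lay at −0.95 relative to all, but a shift of whole arrays leaves a relative change in place, apart from low signals set to a minimum. All LS7 animals lay below all SH7 animals for 23 members against 36.6% of all tested. With spike-in scaling 7 members were called lower and 0 higher, beside 55 and 118 of all tested. A single scan day held both groups, with 1 array of each, LS7 replicate 5 and SH7 replicate 3. There the median member differed by −0.94 relative to all detected, with 23 of 31 below. That LS7 array had the highest gain of its group, 720, and 6 members above background, against 25 on the SH7 array. Most member values on it were therefore below background. No count with scan day as a block is given, as that fit rests on this pair.

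miR-434 was above background on all 5 LS7 arrays, with 9.52, 8.17, 8.82, 8.11 and 6.67 in LS7 animals against 10.55, 11.41, 10.79, 11.28 and 11.48 in SH7 animals. All LS7 animals lay below all SH7 animals, and the change was −2.85 (SE 0.44, limma adjusted p = 0.000225), 7.19-fold lower, or −1.84 relative to all detected. It passed the threshold under the other settings tried, leaving aside the scan-day block with its 1 array per group. miR-376b-3p had 6.79, 4.23, 5.65, 5.92 and 2.91 in LS7 animals, 2 of which were above background, against 7.50, 8.55, 8.07, 8.52 and 8.55 in SH7 animals (change −3.14, SE 0.56, limma adjusted p = 0.000479, relative −2.14). miR-300-3p had 6.67, 4.59, 6.13, 5.81 and 3.90 in LS7 animals, again with 2 above background, against 7.49, 8.18, 8.03, 8.46 and 8.24 in SH7 animals (change −2.66, SE 0.46, limma adjusted p = 0.000389, relative −1.66). In both the groups were apart, with LS7 replicates 2 and 5 lowest. miR-323 had 3.85, 2.76, 2.19, 3.17 and 1.94 in LS7 animals and 4.77, 5.55, 4.87, 6.08 and 6.03 in SH7 animals, with no LS7 array and 3 SH7 arrays above background. Its limma adjusted p was 0.000211, and as the bound set by background was under 1, no fold is given. With scaling to the 75th percentile of the microRNAs detected on all arrays its change was 1.03.

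All 6 detected centromeric members were called lower in LS7 on VSN values, where 58.4% of all tested were, and with median centring all but miR-337. miR-127 had 7.17, 5.60, 6.78, 6.19 and 5.22 in LS7 animals, 3 of them above background, against 7.87, 9.05, 8.32, 9.28 and 9.35 in SH7 animals (change −2.58, SE 0.42, limma adjusted p = 0.000332, relative −1.58). miR-136 averaged 6.88 ± 0.39 in LS7 and 9.30 ± 0.58 in SH7 animals (SD, n = 5 each), a change of −2.42. miR-341, found in rat and mouse, averaged 5.54 ± 0.47 in LS7 and 8.02 ± 0.28 in SH7 animals (SD, n = 5 each), a change of −2.48. In none of these did an LS7 animal reach the lowest SH7 animal. miR-433 was above background on no LS7 array and was at least 1.86-fold lower there on VSN values. This bound is smaller than the fall of the median of all detected (−1.0 log2), so it shows no decrease relative to all. miR-337, above background on 1 LS7 array, changed by −1.17, which was −0.17 relative to all detected.

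In the distal group the members with strong signals were called lower together on VSN values. miR-376a had 8.21, 6.33, 7.19, 7.52 and 7.05 in LS7 animals against 9.0, 9.79, 9.85, 10.11 and 9.98 in SH7 animals (change −2.49, relative −1.49), and miR-329 had 8.67, 8.0, 7.95, 7.67 and 6.92 in LS7 animals against 9.46, 10.05, 10.05, 9.99 and 10.23 in SH7 animals (change −2.11, relative −1.11). No LS7 animal reached the SH7 range for either. miR-494 had 9.57, 7.12, 7.27, 9.42 and 6.15 in LS7 animals and 9.95, 10.31, 9.21, 10.41 and 10.59 in SH7 animals, with 2 LS7 animals inside the SH7 range (change −2.19, SE 0.56, limma adjusted p = 0.00345). miR-494 was not called at 3 dpo, where its change relative to all detected was −0.07. miR-411, miR-379, miR-381, miR-382, miR-487b and miR-541 were also called lower, by −2.28 to −1.86. miR-495, which was above background in all SH7 and no LS7 animals, was at least 2.08-fold lower, and miR-369-5p, likewise, at least 1.63-fold lower. Both bounds are on VSN values. Beside the fall of the median of all detected, that of miR-495 was close to it and that of miR-369-5p smaller. miR-369-3p and miR-300-5p were called lower too, with relative changes of −1.50 and −0.53. miR-377, miR-410, miR-376c and miR-409-5p were called lower by the fit but were above background on no LS7 array, and their bound allowed no fold.

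Of the detected members, 7 lay above the median of all detected microRNAs in LS7 versus SH7. They were miR-154, miR-377, miR-409-3p, miR-409-5p, miR-485, miR-539 and miR-376b-5p, from 0.06 to 0.91. miR-154, miR-409-3p, miR-485 and miR-376b-5p were the 4 that limma did not call. The signals of the 7 in SH7 animals averaged 4.72 to 6.31, and miR-377, miR-409-3p and miR-409-5p were above background on no LS7 array. miR-376b-5p was above background on 1 LS7 and 1 SH7 array. miR-485 had been called lower at 3 dpo, and at 7 dpo averaged 5.58 ± 0.26 in LS7 and 6.31 ± 0.66 in SH7 animals (SD, n = 5 each), with a limma adjusted p of 0.0768. Across the 31 detected members the correlation of the mean CT signal with the change was −0.58 in LS7 versus SH7 and −0.25 in LS3 versus SH3. The members share arrays and transcripts, so these are descriptions. A negative correlation here means that members with stronger CT signals had the larger decreases. Members with weak CT signals lay near background, such as miR-377, miR-409-3p and miR-409-5p with CT means of 4.97, 5.07 and 4.45. How far this limit on their measured fall entered the correlation was not tested.

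**Figure D2:**
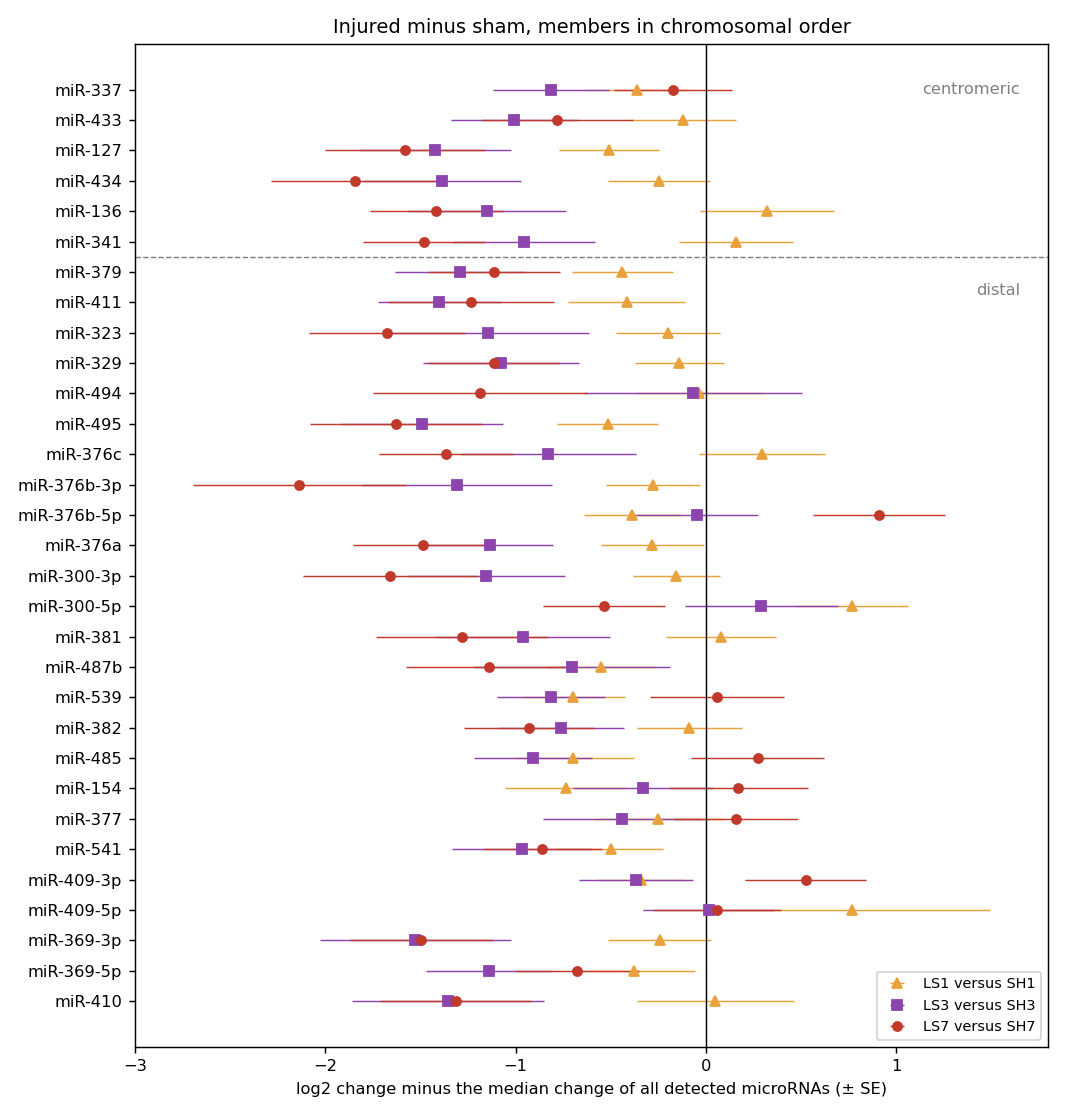
Change of each of the 31 detected members in LS1 versus SH1, LS3 versus SH3 and LS7 versus SH7, minus the median change of all detected microRNAs (log2, points, with the SE as bars), in chromosomal order from the centromeric group at the top. At 3 dpo 29 and at 7 dpo 24 members lie left of 0, and at 1 dpo 24 lie left of 0 by smaller amounts.

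Within the domain both groups of hairpins were lower. The median relative change of the centromeric members was −1.08 in LS3 versus SH3 and −1.45 in LS7 versus SH7, and that of the distal members was −0.96 and −1.11 in the same comparisons. At 7 dpo 6 of 6 detected centromeric and 21 of 25 distal members were called lower on VSN values, against 58.4% of all tested. With median centring these were 5 and 18, against 31.0%. At 3 dpo 3 of 6 and 7 of 25 were called lower, against 4.87% of all tested, and with median centring 3 and 6, against 3.89%. Against CT the order was the other way, with centromeric and distal medians of −0.73 and −0.79 in LS3. In LS7 versus CT they were −0.71 and −0.94. The difference between the groups of hairpins was not tested.

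For 4 hairpins the array had a probe for each arm, and the arms of 1 hairpin did not always change alike. In miR-376b, the -3p arm changed by −2.14 and the -5p arm by 0.91 in LS7 versus SH7, relative to all detected, although the -5p probe was above background on 1 LS7 and 1 SH7 array. In miR-300, whose arms both had signals above background in all SH animals, the -3p arm changed by −1.15 and the -5p arm by 0.29 in LS3 versus SH3, and by −1.66 and −0.53 in LS7 versus SH7. In miR-369, the -3p arm changed by −1.53 and the -5p arm by −1.14 in LS3 versus SH3, with 4 and 1 of the LS3 arrays above background. In LS7 the -3p arm was above background on 1 array and the -5p arm on none, so the arms of miR-369 cannot be ordered there. Both arms of miR-409 were above background on no LS3 and no LS7 array, and no order of them is given. The arms were set side by side as a description, without a test of their difference.

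**Figure D3:**
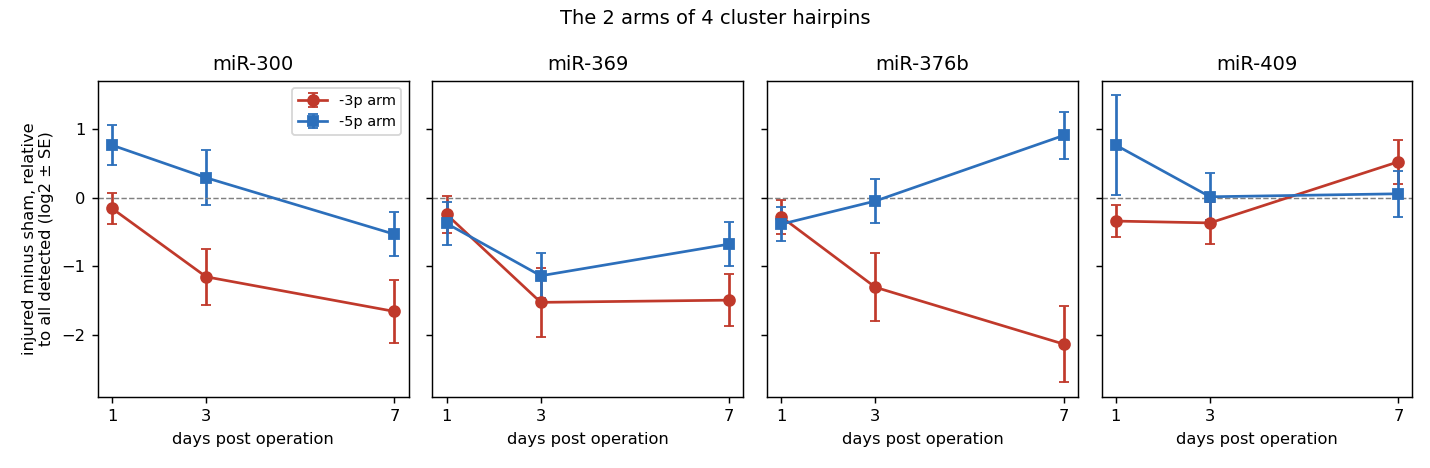
Change of the -3p arm (circles) and the -5p arm (squares) of 4 hairpins in injured minus sham cord, relative to all detected microRNAs (log2 ± SE), against days post operation. For miR-300 the -3p arm lies below the -5p arm at each day. At 7 dpo both arms of miR-409 and the -5p arm of miR-369 were above background on no LS7 array, and the -3p arm of miR-369 and the -5p arm of miR-376b on 1, so their points there are not measured differences.

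Whether the injury effect itself changed with time was tested as a difference of differences, (LS − SH) at the later day minus (LS − SH) at the earlier one. Between 7 and 1 dpo it was lower for 25 members by limma with Benjamini-Hochberg adjustment, against 56.1% of the 719 tested, and with median centring for 15, against 15.4%. With scaling to the 75th percentile of the microRNAs detected on all arrays it was lower for 1 and higher for 11, and a block for scan day left 2 lower. Between 7 and 3 dpo it differed for 1 member, miR-300-5p (−1.58, limma adjusted p = 0.0483), against 3.34% of all tested, and with median centring for 0 against 0.139%. Leaving out LS3 replicate 2 raised this count to 17 and leaving out LS7 replicate 1 raised it to 11, whereas it was 0 or 1 with any other animal left out. Between 3 and 1 dpo it differed for 0 members and 0 of all tested, with 20 members and 83 of all tested at an unadjusted p under 0.05. miR-300-5p had 8.87, 7.07, 8.99, 9.26 and 9.06 in LS3 animals against 8.57, 8.25, 8.73, 8.48 and 8.98 in SH3 animals. It had 8.07, 7.27, 7.23, 7.58 and 7.09 in LS7 animals against 9.19, 8.86, 9.50, 8.77 and 8.59 in SH7 animals. At 3 dpo 4 LS3 animals lay above the median of the SH3 animals, and at 7 dpo all LS7 animals lay below all SH7 animals.

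The group means of 6 members over the days follow (SD, n = 5 per group). In LS7, miR-434 and miR-136 were above background on all 5 arrays, miR-127, miR-379 and miR-382 on 3 and miR-541 on 2. miR-434 averaged 10.42 ± 0.38 in LS1, 9.36 ± 0.96 in LS3 and 8.26 ± 1.06 in LS7 animals, against 10.55 ± 0.30 in SH1, 10.99 ± 0.20 in SH3, 11.10 ± 0.41 in SH7 and 10.78 ± 0.34 in CT animals. miR-127 averaged 7.90 ± 0.40 in LS1, 6.98 ± 0.87 in LS3 and 6.19 ± 0.81 in LS7 animals, against 8.29 ± 0.24 in SH1, 8.64 ± 0.33 in SH3, 8.77 ± 0.65 in SH7 and 8.37 ± 0.37 in CT animals. In both the LS3 and LS7 means were below every SH mean and the CT mean. miR-136 averaged 8.73 ± 0.61 in LS1, 7.46 ± 0.63 in LS3 and 6.88 ± 0.39 in LS7 animals, against 8.29 ± 0.55 in SH1, 8.86 ± 0.76 in SH3, 9.30 ± 0.58 in SH7 and 8.04 ± 0.62 in CT animals, and in LS1 it was not below SH1. In the distal group, miR-379, the member that opens the group on the centromeric side in mammals, averaged 7.95 ± 0.39 in LS1, 7.30 ± 0.62 in LS3 and 6.80 ± 0.51 in LS7 animals, against 8.27 ± 0.27 in SH1, 8.84 ± 0.27 in SH3, 8.92 ± 0.45 in SH7 and 8.65 ± 0.30 in CT animals. miR-541 averaged 6.45 ± 0.45 in LS1, 6.16 ± 0.71 in LS3 and 5.70 ± 0.39 in LS7 animals, against 6.83 ± 0.27 in SH1, 7.37 ± 0.33 in SH3, 7.56 ± 0.29 in SH7 and 7.19 ± 0.35 in CT animals. The LS1 mean of miR-541 also lay below its CT mean, a relative change that passed with median centring (−1.08 with centred values, limma adjusted p = 0.0436, the 1 member called lower so, against 0.278% of all tested). miR-382 averaged 7.88 ± 0.41 in LS1, 6.98 ± 0.55 in LS3 and 6.32 ± 0.40 in LS7 animals, against 7.85 ± 0.31 in SH1, 7.99 ± 0.30 in SH3, 8.25 ± 0.53 in SH7 and 7.83 ± 0.46 in CT animals, with LS1 and SH1 nearly level.

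**Figure D4:**
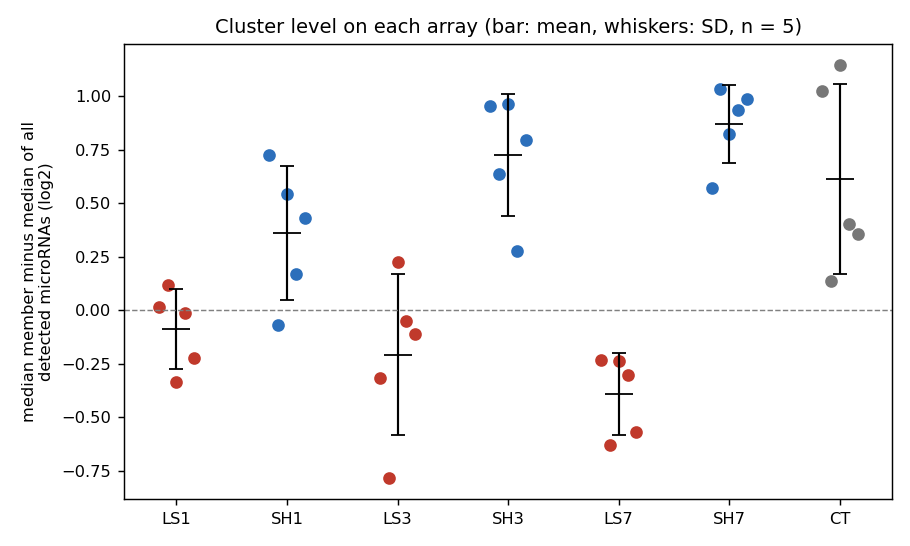
Median of the 31 detected members on each array minus the median of all detected microRNAs on that array (log2), by group, with the mean as a bar and the SD as whiskers (n = 5). LS7 arrays lie between −0.63 and −0.23 and SH7 arrays between 0.57 and 1.03, while LS1 (−0.34 to 0.12) and SH1 (−0.07 to 0.73) overlap.

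The comparisons with CT share the CT animals, so their values are given side by side. In LS1, LS3 and LS7 versus CT the median relative change of the members was −0.44, −0.77 and −0.94. Limma with Benjamini-Hochberg adjustment called 0 members in LS1 versus CT (5 lower and 1 higher at an unadjusted p under 0.05, beside 15 and 143 of all tested), where 0% of all tested were called lower and 7.51% higher. It called 0 in LS3 versus CT (19 lower and 0 higher at an unadjusted p under 0.05, beside 74 and 30 of all tested), against 0% lower and 0.278% higher, although 30 of 31 lay below the median of all, and 9 without LS3 replicate 2. With median centring 4 were called lower there, against 2.36% of all tested, namely miR-127, miR-379, miR-411 and miR-434. In LS7 versus CT 24 members were called lower and 0 higher, against 50.9% and 2.64% of all tested, and 19 with median centring, against 22.0%. Scaling to the 75th percentile of the microRNAs detected on all arrays turned this to 1 lower and 8 higher.

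After laminectomy alone no member was called against CT with unweighted arrays. In SH1, SH3 and SH7 versus CT the median relative changes were −0.13, 0.11 and 0.15, and limma with Benjamini-Hochberg adjustment called 0 members and 0 of all tested (0%) in each. At an unadjusted p under 0.05 there were 0, 2 and 2 higher members, beside 6, 34 and 77 of the 719 tested. In SH7 these were miR-136 (change 1.26, SE 0.33, limma adjusted p = 0.415) and miR-341 (0.69). In SH7 versus CT 28 of the 31 lay above the median of all, by small amounts. With array weights 2 members were called higher in SH7.

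**Figure D5:**
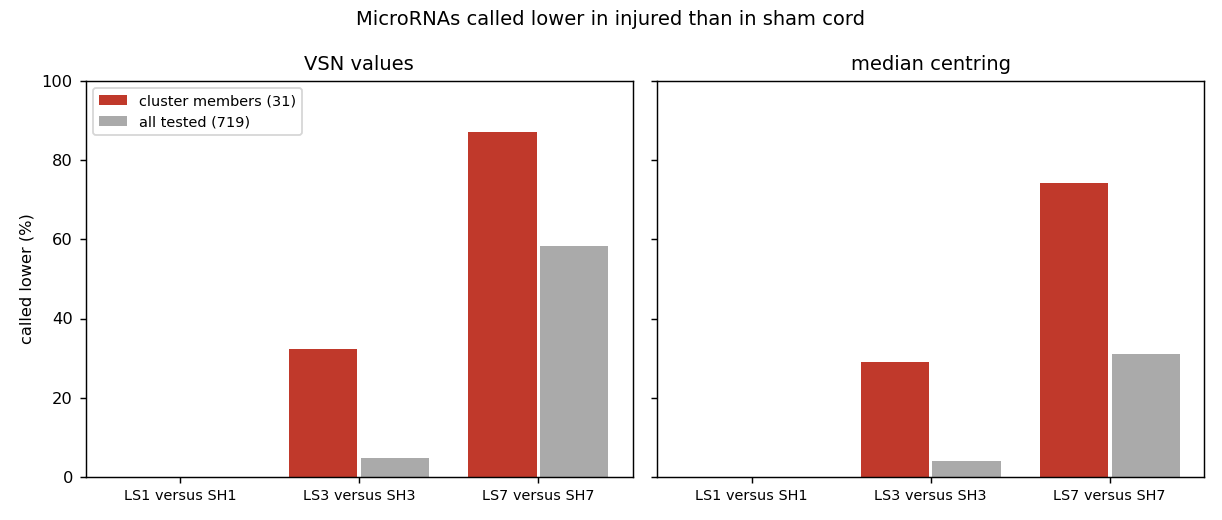
Share of the 31 detected members and of the 719 tested microRNAs called lower in injured than in sham cord (percent, limma adjusted p under 0.05), with VSN values on the left and with median centring on the right. No bar stands at LS1 versus SH1, and at LS7 versus SH7 the bars reach 87.1% of members and 58.4% of all with VSN, and 74.2% and 31.0% with median centring (scaled to the 75th percentile of microRNAs detected on all arrays, 1 member was called lower and 11 higher).

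The members varied together to different degrees. Over the 35 arrays, with each array centred on its median, the 465 pairs of detected members had a median Pearson's r of 0.53, between −0.63 and 0.98. It was 0.47 for pairs within the centromeric or the distal group and 0.59 for pairs across them. No median over pairs of other microRNAs is given here, so this likeness is not shown to be particular to the cluster. After the group means were taken out the median r was 0.30, so part of this likeness was the shared difference between groups. miR-379, miR-127 and miR-369-3p were most like the other members, and miR-409-5p, miR-376b-5p and miR-300-5p least. The probes outside the cluster whose pattern was most like that of miR-127 were miR-124 (r = 0.96), miR-10b (0.96), miR-125a-5p (0.94), miR-335 (0.94) and miR-128 (0.94), over the same 35 arrays, which share the groups and the scaling. Among the members miR-434 was closest to miR-127, with 0.957 beside 0.958 for miR-124.

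Lists of neuronal, oligodendrocyte and myeloid microRNAs were measured beside the cluster. The neuronal microRNAs were miR-124, miR-9, miR-128, miR-138, miR-7a, miR-129, miR-137, miR-218, miR-132, miR-212 and miR-153, all 11 detected, with miR-7a not tested for its small spread. Of the 10 tested, limma called 5 lower in LS3 versus SH3 against 4.87% of all tested, and 10 in LS7 versus SH7 against 58.4% on VSN values, and the median relative changes of the list were −0.93 and −0.88. Their mean signal per array ran from 6.73 to 8.34 in LS3 and 8.81 to 9.23 in SH3, and from 6.36 to 8.03 in LS7 and 8.57 to 9.42 in SH7, which did not overlap at either day. miR-124, which is abundant in neurons, changed by −1.50 at 3 dpo and −1.61 at 7 dpo relative to all detected. Against CT, 0 neuronal microRNAs were called in LS3 and 7 were called lower in LS7, beside 0% and 50.9% of all tested called lower. In LS7 versus CT 8 of the 11 lay below the median of all. Above it lay miR-129 (0.10), miR-132 (0.07) and miR-137 (0.20). The 3 oligodendrocyte microRNAs miR-219-5p, miR-219-2-3p and miR-338 were called lower in LS7 versus SH7 (median relative change −1.70), with a mean signal of 7.84 to 10.61 in LS7 and 11.03 to 12.23 in SH7. In LS3 versus SH3 none of them was called (median −0.78). The 3 myeloid microRNAs miR-223, miR-142-3p and miR-142-5p had positive median relative changes, of 1.30 in LS3 versus SH3 and 0.52 in LS7 versus SH7, and none was called in either. Against CT, 2 of them were called higher in LS1, 1 in LS3 and 1 in LS7. The part of these cell types in the change of the cluster was not tested.

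Probes of the domain that the rule left out carry star names or only a human or mouse name, and were measured too. Some, such as hsa-miR-665 and mmu-miR-667, belong to hairpins without a member. Others, such as hsa-miR-376a, share the name of a member, so the set is no separate view of the cluster. Of 68 such probes 30 were detected and 27 tested. In LS3 versus SH3 7 were called lower and 0 higher by limma, against 4.87% of all tested, and in LS7 versus SH7 20 were called lower and 0 higher, against 58.4%. With median centring 15 were lower and 3 higher at 7 dpo, against 31.0% and 16.7% of all tested. The probe for the other arm of miR-127, named hsa-miR-127-5p/mmu-miR-127*, changed by −1.29 relative to all detected in LS3 versus SH3 (limma adjusted p = 0.0426) and by −1.09 in LS7 versus SH7. mmu-miR-434-5p changed by −1.42 in LS3 versus SH3 (limma adjusted p = 0.0266). The median relative change of the 30 probes in LS7 versus SH7 was −0.60.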

How the data were processed

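The 43 members, the marker lists and the tests were chosen with earlier results of these data known. Total RNA of 35 cord fragments was labelled with Hy3 and hybridised to miRCURY LNA v11 arrays. The authors deposited scanner tables with foreground and background intensity in the green channel per spot, with spot flags as a score per the file headers, and 1 table of log2 values normalized by VSN per spot. In 1 scanner table the intensities stand with decimal commas (unit other, as deposited). Here the background median was subtracted, spots flagged −100 were left out, the arrays were normalized together by VSN (own implementation, least trimmed share 0.9), and the median of 4 spots gave a value per name. A spot was above background when it passed the mean of 28 negative control spots by 2 SD, and a name when over 0.5 of its spots did. Names seen in 3 of 5 animals of any group with an interquartile range over 0.5 were tested (719 of 816). limma 3.58.1 (R 4.3.3) was fitted to the 10 arrays of each comparison, without a block, with Benjamini-Hochberg adjustment over the 719 and a limit of 0.05, and the procedure was tested on simulated data. Changes relative to all are minus the median change of the 816. Named per animal were the 5 members with the highest CT mean, and per day the 4 called members with the largest relative change or, with fewer than 2 called, the 2 with the lowest p. Mature sequences and positions came from RefSeq (GRCr8). A bound sets a group with no array above background to the lowest signal above background. Each array carried 9360 spots, and their brightness over background, with 5 animals per group, limits the precision. The study's methods call the limma test paired, but the labels do not say what equally numbered samples share, so the replicate block was an alternative. The p-values measure the spread between these animals. The red channel is not described in the sources used here and was left out. Alternatives were other scalings, filters, blocks, array weights and leaving out each animal.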

Additional observations from a re-analysis of the deposited data

Results flagged for a closer look

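For a single distant value, 91 groups of 5 animals were tested, in the members given per animal and in the median member level per array. Chance gives about 1 in 20 for independent groups, but these share arrays, so that rate sets no expected count. A distant value was found in 14. Of these, 8 were the value of LS3 replicate 2 as the lowest of its group, with 5.03 for miR-300-3p, 7.07 for miR-300-5p, 1.82 for miR-323, 7.00 for miR-329, 7.38 for miR-376a, 4.33 for miR-376b-3p, 5.75 for miR-411 and 7.68 for miR-434. The median of all detected microRNAs on that array, 5.82, was also the lowest of LS3. The other distant values were 4.12 for miR-323 in SH3 replicate 2, 9.0 for miR-376a in SH7 replicate 1, and 8.37 for miR-411 in CT replicate 1, the highest of its group. For miR-495 they were 5.62 in LS1 replicate 3, 2.61 in LS7 replicate 5 and 6.65 in SH3 replicate 4.

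The injury effect at 7 dpo differed from that at 1 dpo by the interaction test of limma for 25 members, where 56.1% of all tested did so in the same direction. With median centring it was 15 members and with scan day as a block 2. Among the members given per animal the difference was −2.19 for miR-127, −2.62 for miR-300-3p, −2.42 for miR-300-5p, −2.59 for miR-323, −2.09 for miR-329, −2.32 for miR-376a, −2.98 for miR-376b-3p, −1.94 for miR-411, −2.72 for miR-434, −2.27 for miR-494 and −2.23 for miR-495 on the log2 scale of VSN values. The difference between 7 and 3 dpo passed for 1 member, miR-300-5p (−1.58), and for 3.34% of all tested, with a lower value.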

How the results depend on the processing

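Counts of members called (of 31) changed with the scaling. Under every scaling the median relative changes of the 3 LS groups against SH and CT stayed below 0. Median centring, both percentiles and spike-in scaling shift a whole array by a constant. That cancels in a relative change, apart from low signals set to a minimum, so these scalings are no separate check of it. In this paragraph and the next, counts without a direction hold calls in either direction. They are not set beside the share of all tested and show the dependence on processing only. With spike-in scaling in LS1 versus CT the median change of all detected was 1.17 and that of the members 0.80. In LS3 versus SH3, with 10 called, the deposited values gave 18, normexp with quantile normalization 17, the 75th percentile of microRNAs detected on all arrays 1, scaling to spike-ins 0, all 7 groups in one fit 22 and array weights 23. In LS7 versus SH7, with 27 called, that percentile gave 12 (11 of them higher) and scaling to spike-ins 7. In LS7 versus CT, with 24, the same scalings gave 9 (8 higher) and 3. In LS1 versus SH1 spike-in scaling gave 31 higher and array weights 1. In LS1 versus CT, with 0 called, array weights gave 1. No count with a scan-day block is given there, as the shared day held only LS1 replicate 3 and CT replicate 1. The same holds for LS3 versus SH3 and LS7 versus SH7, with 1 array per group on the shared day. For LS1 versus CT the deposited values gave 2, normexp 3, the 75th percentile of all microRNAs 2, centring 1 and scaling to spike-ins 13. In LS3 versus CT, with 0, they gave 9, 8, 1, 4 and 7 up to spike-in scaling, the percentile of microRNAs detected on all arrays 5, no filter on the interquartile range 1, one fit 9, a random scan-day block 18 and weighting of arrays 12. In SH7 versus CT array weights gave 2. For 7 against 1 dpo, with 25, normexp gave 12, the percentile of microRNAs detected on all arrays 12 (11 higher), that of all microRNAs 16, centring 15 and scan day as a block 2. For 7 against 3 dpo, with 1, it was 0 under every scaling except VSN without background subtraction, without the interquartile filter and with scan day as a block, and for 3 against 1 dpo spike-in scaling gave 28. The median relative change was −0.58 (deposited) and −0.53 (normexp) in LS3 versus SH3, −0.57 and −0.47 in LS7 versus CT, and −0.76, −0.64, −0.95 (both percentiles and spike-in scaling) and −0.91 (detection in 5 of 5 animals) in LS7 versus SH7. The change of miR-539 in LS1 versus SH1 turned to 1.33 with spike-in scaling and that of miR-323 in LS7 versus SH7 to 1.03 with the percentile of microRNAs detected on all arrays. The causes were not tested.

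Leaving out 1 animal gave 0 to 17 members in LS3 versus SH3, 24 to 28 in LS7 versus SH7, 0 to 9 in LS3 versus CT, 23 to 24 in LS7 versus CT, 0 to 1 in LS1 versus SH1 (1 without SH1 replicate 4) and in LS1 versus CT (1 without LS1 replicate 4), 24 to 25 for 7 against 1 dpo, 0 to 17 for 7 against 3 dpo, and 0 in the SH comparisons and for 3 against 1 dpo. The median relative change ran from −1.04 to −0.89 in LS3 versus SH3, −1.34 to −1.03 in LS7 versus SH7, −0.35 to −0.20 in LS1 versus SH1, −0.51 to −0.32 in LS1 versus CT, −0.83 to −0.65 in LS3 versus CT and −1.03 to −0.77 in LS7 versus CT. Samples share only a replicate number: deviations of equally numbered animals correlated from −0.66 to 0.66, and no comparison had every pair over 0.1. The replicate block gave 22 members in LS3 versus SH3 in place of 10, 26 in LS7 versus SH7, 23 in LS7 versus CT and 1 in LS3 versus CT. A random block for scan day could not be fitted for SH3 versus CT, and no scan day held LS1 and SH1 together.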

Other observations

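Of the domain's probes with a star name or a human or mouse name alone, 3 were called higher in LS7 versus SH7 with median centring, where 16.7% of all tested were. They were mmu-miR-673-3p (relative change 1.67, limma adjusted p = 0.00318), hsa-miR-493* (1.10, limma adjusted p = 0.0412) and hsa-miR-377* (1.09, limma adjusted p = 0.037). With VSN values none of the 3 was called, and their changes were 0.67, 0.10 and 0.09. The probe named hsa-miR-136*/rno-miR-136* had a relative change of −1.62 in LS7 versus SH7 (limma adjusted p = 0.000188 on VSN values). No rat name on the array carried the rule's numbers of miR-496, miR-544, miR-665, miR-666, miR-667, miR-668 or miR-889.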
